A study of Mus musculus with 44 samples.

Results

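The homeobox gene families described here are the Hox clusters and the Nkx, Lhx, Dlx, Msx, Meis, Pbx, Irx, Emx, En and Six-family genes, followed in mouse embryonic stem (ES) cells that carry the homeodomain protein Hex or an activator fusion of it. Members were all probe sets of the Affymetrix array whose annotation gives 1 gene symbol of these families: 80 of the 12422 probe sets tested, for 67 of 8251 genes. The Hox clusters supplied 38 of them (31 genes), the Six-family and Nkx genes 8 each, Lhx 7, Dlx 6, Pbx 4, Meis 3, Msx 3, En 2 and Irx 1, and no Emx gene had such a probe set. A further 3 probe sets that the annotation gives to several genes at once, Hox genes among them, were not counted. The study hybridised RNA from CGR8.8 ES cells to 44 arrays, of which 40 fell into 11 groups by their titles. The groups were wild-type cells (4 arrays), cells with Hex targeted to the Rosa26 locus before recombination (4) and after it (4), and cells with HexERTVP2 targeted to Rosa26 in 2 clones. Each HexERTVP2 clone was measured before and after recombination, without and with 4-OHT (4-hydroxytamoxifen): 5, 3, 4 and 4 arrays for clone 1 in the order unrecombined without, unrecombined with, recombined without and recombined with 4-OHT, and 3 arrays in each state for clone 2. The labels give neither the dose nor the time of 4-OHT, the recombinase, nor the number of clones behind the Hex cells, and whether the arrays of 1 group stem from different cultures is not given. P-values therefore measure the spread between these arrays, which may be technical.

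Homeobox genes encode transcription factors that bind DNA through a homeodomain, which commonly recognises sites with a TAAT core. Hox genes lie in clusters and pattern the body axis, Pbx and Meis proteins are their cofactors, and the Nkx, Lhx, Dlx, Msx, Irx, En and Six-family genes pattern the nervous system, head, heart, limbs and sense organs. Most of these genes are held silent by Polycomb proteins in ES cells and are switched on as cells differentiate. Hex (gene symbol Hhex) is itself a homeodomain protein and acts mainly as a transcriptional repressor. HexERTVP2 is commonly read as Hex joined to a tamoxifen-responsive part of the oestrogen receptor and a VP16-type activation domain, which would turn the repressor into an activator that responds to 4-OHT; the labels do not spell this out.

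The arrays carried the expression profile of ES cells: 9 of 10 ES cell markers, Pou5f1, Sox2 and Nanog among them, lay above the median probe set. Of the markers of other cell types, 6 of 10 for fibroblasts, 5 of 10 for neural cells, 3 of 9 for endoderm, 2 of 8 for mesoderm and 3 of 8 for trophoblast did so. The array's Hhex probe set, at group means from 5.89 to 6.29 log2 units, did not pass the test in any comparison: it differed by 0.36 (SE 0.16; limma adjusted p = 0.243) between recombined and unrecombined Hex cells (0.04, SE 0.08, without array 2 of the latter) and by 0.10 (SE 0.12; adjusted p = 0.834) with recombination of HexERTVP2. Whether the transgene's transcript contains the sequence this probe set detects is not stated, so it gives no check of the recombination labels. In unrecombined Hex cells array 2 lay away from all other arrays. It had a mean correlation of 0.869 with the other arrays, against 0.978 to 0.99 for the rest. RNA quality was also judged by β-actin, as the ratio of 3′ to 5′ signal in log2 units, where array 2 stood at 2.24. The other arrays of its group stood at 1.30, 1.14 and 1.25, but single arrays of other groups had ratios as high. Array 3 of recombined HexERTVP2 clone 1 without 4-OHT stood at 2.34, with a mean correlation of 0.981. Array 3 of recombined clone 2 with 4-OHT stood at 2.24, with a mean correlation of 0.985. ES cell markers averaged 8.67 log2 units on array 2 of unrecombined Hex, against 9.49 to 9.95 on the other arrays. Its neural markers were also lower (6.89 against 7.10 to 7.32). Its fibroblast, endoderm, mesoderm and trophoblast markers were higher than on any other array. What set it apart was not tested. The part of array 2 of unrecombined Hex in the results was tested only by leaving it out. Changes of members and listed genes that rest on its group are given with and without it.

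Promoters of Six4 and Nkx6-2 are shown because these members had the lowest adjusted p of the 80 in the test for any difference among the 11 groups with all arrays; without array 2 of unrecombined Hex, Hoxa3 (limma adjusted p = 0.00135) came before Nkx6-2 (0.00387). Each sequence is the 250 bases before the gene's start in RefSeq (build GRCm38.p6), read 5′ to 3′ on the minus strand: chr12:73113246-73113495 for Six4, where the table holds 2 starts and the first was taken, and chr7:139582798-139583047 for Nkx6-2. Capitals mark TAAT, the homeodomain core, searched on both strands.
Six4: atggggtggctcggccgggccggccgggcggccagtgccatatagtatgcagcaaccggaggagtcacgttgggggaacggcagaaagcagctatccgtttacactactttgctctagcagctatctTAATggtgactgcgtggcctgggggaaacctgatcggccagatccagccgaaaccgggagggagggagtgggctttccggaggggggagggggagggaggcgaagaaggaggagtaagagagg
Nkx6-2: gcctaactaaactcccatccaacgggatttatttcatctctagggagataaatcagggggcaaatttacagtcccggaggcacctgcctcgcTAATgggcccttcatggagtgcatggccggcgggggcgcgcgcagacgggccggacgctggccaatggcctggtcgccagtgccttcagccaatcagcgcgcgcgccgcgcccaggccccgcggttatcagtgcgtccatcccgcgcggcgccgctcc
Each of these windows holds 1 TAAT match. RefSeq promoters were given for 48 of the 67 member genes, and 29 of those 48 (60.4%) held TAAT, against 55.3% of all 27025 promoters of that length. The 8-base Hex site CAATTAAA was found in 0 of the 48 and in 1.04% of all. The composite Pbx-Hox site TGATNNAT, which does not overlap in definition with the Hex site, was found in 4 (8.33%), those of Hoxa2, Hoxb1, Hoxb8 and Nkx6-2, against 7.91% of all. Member promoters had a median GC content of 61.6%, against 52% over all promoters. A match is only a stretch of letters and does not show that a protein binds there.

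Most homeobox probe sets were dim in every group. Only 21 of the 80 (26.2%) had a mean log2 intensity over the 40 arrays at or above that of the median probe set on the array, 6.77, where by definition 50% of all probe sets do. The members' means ran from 3.22 for Dlx2, a forebrain and jaw regulator, to 8.96 for 1 of the 4 probe sets of Hoxa4, with a median of 6.10. The deposited table has no detection call, so a dim value is not shown to exceed background. Hox probe sets were above the median in 8 of 38 cases, Six-family sets in 3 of 8, Nkx in 2 of 8, Dlx in 2 of 6, Pbx in 2 of 4, En in 2 of 2, Lhx in 1 of 7, Msx in 1 of 3, and Meis and Irx in 0 of 3 and 0 of 1.

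Among the brighter members, wild-type cells gave 8.34 ± 0.07 (SD, n = 4) for Six2, a factor of kidney progenitors, and 7.98 ± 0.07 for Msx1, which patterns teeth and face. Across the 11 groups without array 2, the group means ran from 8.34 to 8.62 for Six2 and from 7.91 to 8.16 for Msx1. Lhx1, which is needed for head formation, stood at 7.27 ± 0.06 in wild-type cells, the lowest of its group means, and reached 7.70 in unrecombined clone 2 without 4-OHT. Nkx2-9 and Nkx1-2, both expressed in the developing neural tube or tail bud, gave 7.33 ± 0.15 and 6.97 ± 0.03 in wild-type cells. Hoxb8 (probe set 96418_r_at) gave 7.64 ± 0.18, Hoxb6 7.48 ± 0.12, Six5 7.25 ± 0.07, Dlx3 6.87 ± 0.09 and En1 6.76 ± 0.14 in the same 4 arrays. Probe sets of a single gene stood far apart, at means of 8.96, 7.39, 4.40 and 3.48 for Hoxa4. Differences are therefore read between groups. The order of members by intensity and the family counts above the median describe probe sets and do not rank genes by expression.

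The members differed little from group to group. Their median SD within a group was 0.15 log2 units, against 0.19 over all probe sets, and their median range between the highest and lowest of the 11 group means was 0.28 against 0.30 (ranges without array 2). Among probe sets below the median intensity the median range was 0.28 for members and 0.26 for all. A range over 0.5 was found for 4 of the 80 (5%), against 19.3% of all probe sets and 8.73% of those below the median. These 4 were 1 probe set each of Pbx3 (93615_at, 1.21), Six4 (93001_at, 0.77), Hoxd9 (0.52) and Hoxd12 (0.51). Hoxd12, a limb gene, owed its range to 1 array: unrecombined clone 2 without 4-OHT read 5.18, 5.04 and 5.97, and no other array of the 40 was above 5.34. That array, array 3, had a mean correlation of 0.978 with the other arrays. It also held the lowest value of its group for Six4 93001_at (4.79), Pbx3 93615_at (6.03) and Pbx3 93616_g_at (6.36). Hoxd9 ran from 6.06 in wild-type cells to 6.59 in unrecombined clone 2 without 4-OHT. That clone 2 group had the highest mean for 39 of the 80 members, and wild-type cells had the lowest for 36 of the 80. Among all probe sets below the median the same groups were highest for 38% and lowest for 25.1%, both smaller shares than among the members.

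**Figure D1:**
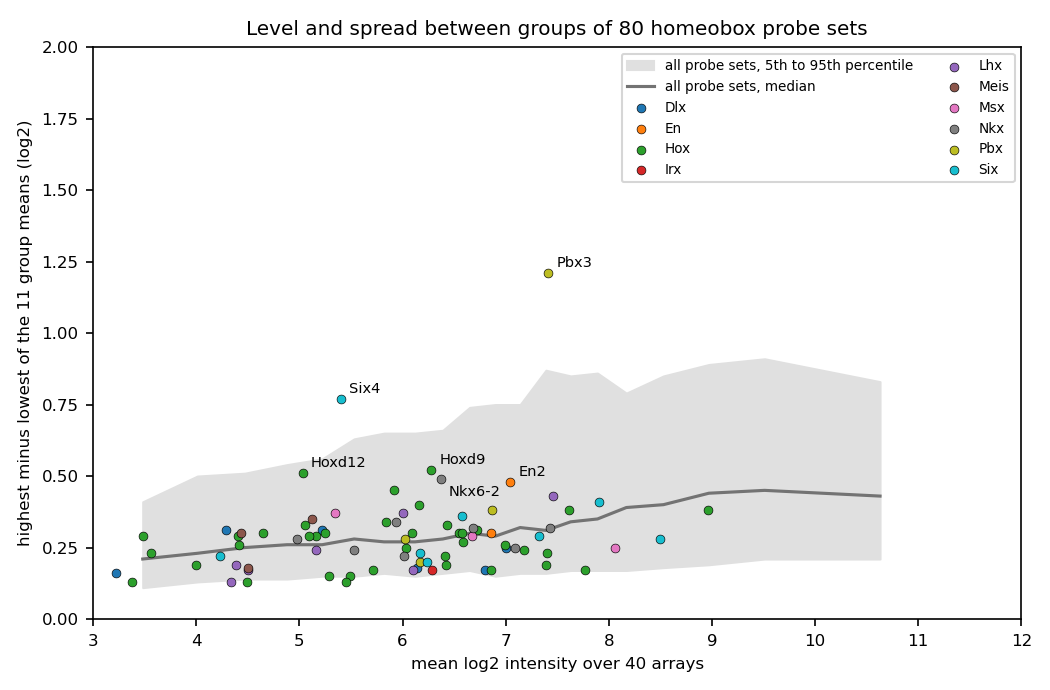
Mean log2 intensity over 40 arrays (x axis) against the highest minus the lowest of the 11 group means without array 2 of unrecombined Hex (y axis, log2) for the 80 homeobox probe sets, coloured by family, over the median (line) and the 5th to 95th percentile (grey) of all probe sets. Most members lie near the line; the Pbx3 probe set at 1.21 and the Six4 probe set at 0.77 lie above the grey area.

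Recombination of the Hex cells addressed whether the repressor moves these genes. With all arrays, 1 of the 80 members passed (limma, Benjamini-Hochberg adjusted p under 0.05), Nkx2-6, against 3.37% of all probe sets, and 11 members (13.8%) had an unadjusted p under 0.05 against 15.9% of all. Without array 2 of the unrecombined Hex cells 1 member passed again, a Six4 probe set, against 6.26% of all, and 10 (12.5%) had an unadjusted p under 0.05 against 19% of all. These shares are all below those over all probe sets. The members' median absolute difference was 0.10 log2 units with all arrays, beside 0.13 over all probe sets (0.11 beside 0.12 without array 2), and the 95% limma interval lay within 0.5 of 0 for 67 members and within 1 for 78. The widest interval, of a Pbx3 probe set, reached 1.54. Without array 2 the widest, again of Pbx3, reached 0.91, and 73 and 80 intervals lay within 0.5 and 1.

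Nkx2-6, a gene of the embryonic heart and pharynx, read 5.75, 5.27, 5.84 and 5.94 in unrecombined Hex cells, array 2 being the lowest, and 6.07, 6.12, 6.20 and 5.98 in recombined ones. The groups did not overlap, the wild-type arrays lay at 5.73 to 5.98, and the means were 5.70 ± 0.29 and 6.09 ± 0.09 (SD, n = 4 each). The rise was 0.39 log2 units (SE 0.11; limma adjusted p = 0.0318). The call was lost without array 2 of unrecombined Hex (0.25; adjusted p = 0.11) and without array 1, 2 or 3 of recombined Hex (adjusted p = 0.0644, 0.0861 and 0.0949). It was also lost when each array was centred on its median (0.34; adjusted p = 0.0679) and when only these 8 arrays were fitted (adjusted p = 0.931).

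Six4, which acts in muscle, kidney and sensory development, has 3 probe sets here. The first of them to be described, 93001_at, read 5.81, 5.0, 5.74 and 5.77 in unrecombined Hex cells and 5.52, 5.35, 5.34 and 5.44 in recombined ones, while wild-type cells read 5.76, 5.74, 5.61 and 5.74. Array 2 lay below every recombined array and the other 3 lay above them. Without that array the means were 5.77 ± 0.03 (n = 3) and 5.41 ± 0.08 (n = 4), and Six4 fell by 0.36 with recombination (SE 0.10; limma adjusted p = 0.027); with it the difference was -0.17 (SE 0.13; adjusted p = 0.524). The other Six4 probe sets did not pass without array 2: each differed by -0.22, with adjusted p = 0.159 for 92999_at and 0.126 for 93000_g_at. Recombined Hex cells read 7.93, 8.04, 7.82 and 7.98 on 92999_at, within the range of 7.97 to 8.18 in wild-type cells or just under it. All 3 Six4 probe sets were among the 5 members lowest on array 2 relative to the other unrecombined Hex arrays, together with Pbx3 93615_at and 96580_at. In RNA from whole cultures, fewer cells with a transcript and less transcript per cell cannot be told apart.

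Members with the next smallest p for Hex did not pass. Six6, an eye and pituitary gene, differed by 0.29 (SE 0.09; limma adjusted p = 0.08), Msx2, a craniofacial gene, by 0.27 (SE 0.09; adjusted p = 0.0828) and Pbx3 96580_at by 0.45 (SE 0.15; adjusted p = 0.0974). Without array 2, which read 4.88 on 96580_at against 5.93 to 6.11 on its group's other arrays, the values were 0.17 for Six6, 0.23 for Msx2 and 0.17 for Pbx3, with adjusted p = 0.244, 0.146 and 0.337. The other Pbx3 probe set with a large value, 93615_at, differed by 0.82 (SE 0.35; adjusted p = 0.232) with array 2 and by 0.31 without it. On that probe set the unrecombined Hex arrays read 7.47, 5.45, 7.48 and 7.54 and the recombined ones 8.50, 7.41, 7.67 and 7.64. Array 2 lay 2.05 units below the mean of its group's other arrays, and the remaining 3 arrays lay inside the range of the recombined cells.

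**Figure D2:**
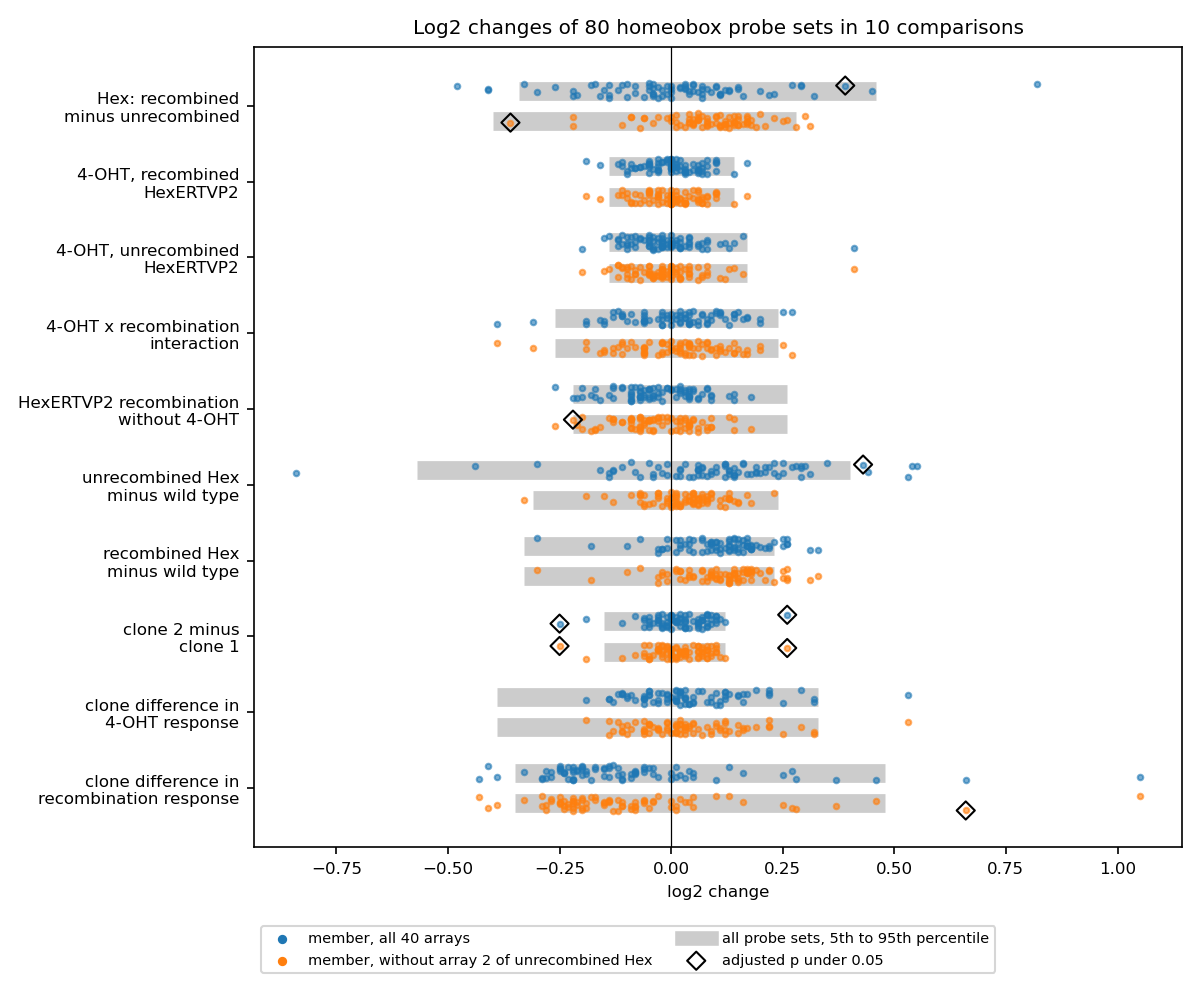
Log2 change (x axis) of each of the 80 homeobox probe sets in 10 comparisons (rows), with all 40 arrays (blue) and without array 2 of unrecombined Hex (orange), over the 5th to 95th percentile of all probe sets (grey bars); diamonds mark an adjusted p under 0.05. Few members pass, and the points for 4-OHT in recombined HexERTVP2 cells all lie between -0.19 and 0.17.

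The activator fusion was addressed by 4-OHT in recombined HexERTVP2 cells, averaged over the clones. Of the 80 members 0 passed (limma adjusted p under 0.05) against 0.0322% of all probe sets, and 1 had an unadjusted p under 0.05 (1.25%, against 1.54% of all). Without array 2 of unrecombined Hex, which enters only the shared estimate of the spread, 0 passed again, against 0.145% of all. The differences ran from -0.19 to 0.17 with a median size of 0.05, the same as over all probe sets. For 77 members the 95% interval lay within 0.5 of 0 and for 80 within 1, so a doubling or halving of the measured intensity lies outside every member's interval; dim probe sets near background can understate a change.

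The member with the smallest p was Nkx2-9, at 0.17 (SE 0.07; limma adjusted p = 1), with 0.13 in clone 1 and 0.21 in clone 2. Six4 93001_at differed by -0.19 (SE 0.10; adjusted p = 1): recombined clone 1 read 5.47, 5.29, 5.25 and 5.32 without and 5.03, 5.18, 5.25 and 4.90 with 4-OHT, and recombined clone 2 read 5.69, 5.34 and 5.39 without and 5.23, 5.31 and 5.44 with it. The arrays met at 5.25 in clone 1 and overlapped in clone 2. The other Six4 probe sets differed by -0.12 and -0.09 in clone 1 and by -0.10 and -0.14 in clone 2. Hoxa4 97747_r_at differed by 0.14 and Six3 102901_at by 0.10, both with adjusted p = 1.

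In unrecombined HexERTVP2 cells, the control for 4-OHT itself, 0 members passed against 0% of all probe sets, and 1 had an unadjusted p under 0.05 (1.25%, against 1.36% of all). That member was Pbx3 93616_g_at, at 0.14 (SE 0.06; limma adjusted p = 1). Hoxa3 (-0.15), Hoxd12 (-0.20) and Hoxc9 (-0.11) came next, each with adjusted p = 1. The interaction, which asks whether 4-OHT acted differently after recombination, gave 0 members against 0.0161% of all, with 2 members at an unadjusted p under 0.05 (2.5%, against 2.59% of all). These were Six4 93001_at, at -0.31 (SE 0.14), and Hoxa4 97747_r_at, at 0.25 (SE 0.12), both with limma adjusted p = 1. Whether recombined clone 2 answered 4-OHT otherwise than recombined clone 1 was tested as well, and 0 members passed against 0% of all probe sets, with 2 (2.5%, against 0.741% of all) at an unadjusted p under 0.05. These were En2 at 0.32 (SE 0.15) and Six3 102900_at at 0.32 (SE 0.16), both with limma adjusted p = 1. Without array 2 of unrecombined Hex the counts of members passing stayed at 0 in these 3 tests, against 0%, 0.0644% and 0% of all probe sets. For the clone difference in response to 4-OHT, the same contrast of the β-actin log2 ratio was 0.95. With that ratio as a covariate 0 members passed for this difference, against 0% of all probe sets. The values of En2 and Six3 under the covariate are not given here.

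**Figure D3:**
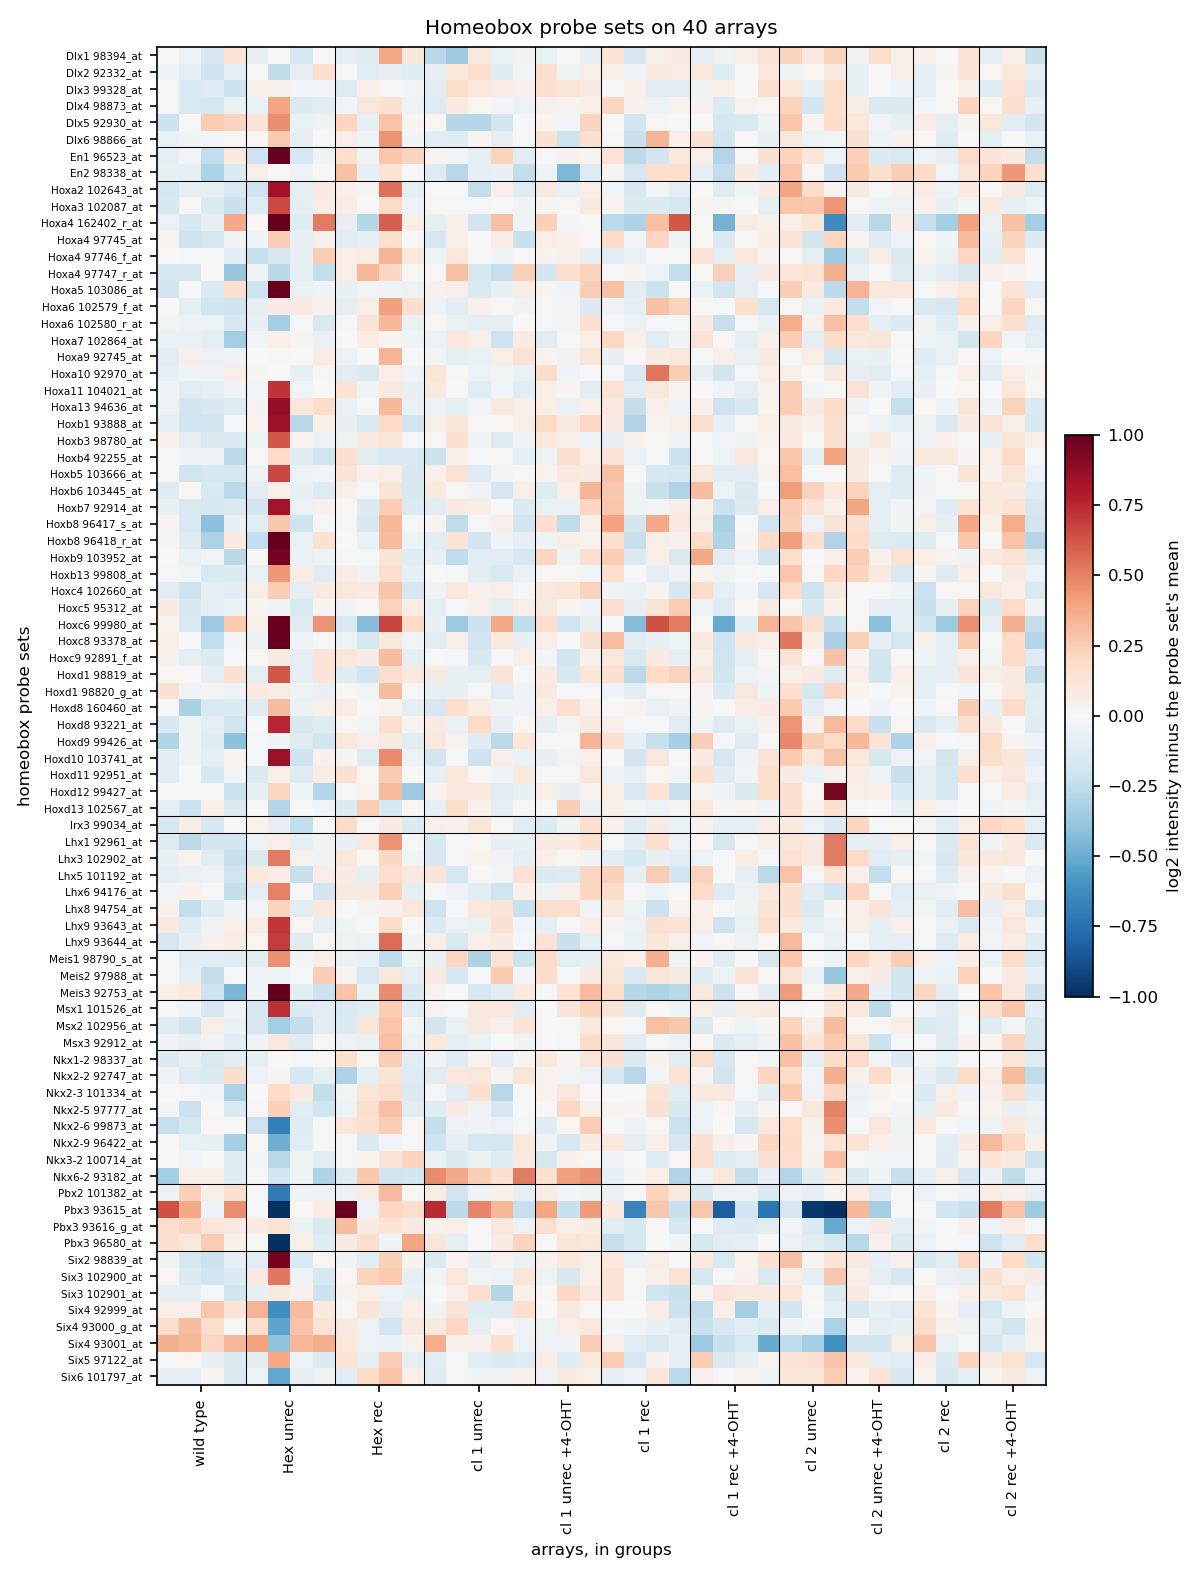
Log2 intensity of the 80 homeobox probe sets (rows, by family) on the 40 arrays (columns, by group) minus the probe set's mean over the arrays other than array 2 of unrecombined Hex, from -1 (blue) to 1 (red). The column of array 2 differs from its group in both directions (58 members higher, 22 lower), and few rows follow the group borders; Nkx6-2 does, in unrecombined clone 1.

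Recombination of HexERTVP2 without 4-OHT gave 0 members with all arrays (limma), against 0.467% of all probe sets, and 6 (7.5%) at an unadjusted p under 0.05 against 10.7% of all. Without array 2 of unrecombined Hex, again only through the estimate of the spread, 1 member passed against 3.38% of all. That member was Hoxa3, a gene of the pharyngeal arches and thymus, which fell by 0.22 (SE 0.05; limma adjusted p = 0.00542); with all arrays the difference was -0.22 with SE 0.07 and adjusted p = 0.214. Unrecombined clone 2 read 6.18, 6.17 and 6.34 and recombined clone 2 read 5.95, 5.82 and 5.87, with no overlap. Clone 1 read 5.92, 5.88, 5.89, 5.90 and 5.86 before and 5.93, 5.76, 5.76 and 5.72 after recombination, and these overlap. Clone 2 thus differed by -0.35 (SE 0.12) and clone 1 by -0.10 (SE 0.09), and the difference between the clones did not pass (-0.25; adjusted p = 0.763 with all arrays and 0.198 without array 2). Unrecombined clone 2 cells with 4-OHT read 5.91, 5.85 and 5.85, below the same cells without it.

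That difference between the clones in the response to recombination was a comparison chosen after the data had been seen. With all arrays 0 members passed (limma) against 0.29% of all probe sets, 7 (8.75%, against 7.33% of all) having an unadjusted p under 0.05, and without array 2 of unrecombined Hex 1 passed against 1.35%. It was Six4 93001_at, whose response was higher in clone 2 by 0.66 (SE 0.14; limma adjusted p = 0.01; with all arrays SE 0.19 and adjusted p = 0.207). Clone 2 read 5.15, 5.06 and 4.79 before and 5.69, 5.34 and 5.39 after recombination, without overlap, while clone 1 read 5.77, 5.45, 5.45, 5.57 and 5.35 before and 5.47, 5.29, 5.25 and 5.32 after, with overlap. Recombination moved the mean by 0.47 (SE 0.15) in clone 2, and by -0.19 (SE 0.12) in clone 1. The other Six4 probe sets differed between the clones by 0.16 and 0.28 and did not pass. Msx2 (-0.43; adjusted p = 0.263), Pbx3 93616_g_at (0.37; adjusted p = 0.294) and Nkx6-2 (0.46; adjusted p = 0.462) came next with all arrays and did not pass.

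Against wild-type cells, unrecombined Hex cells gave 1 member with all arrays (limma), Hoxa13, against 4.82% of all probe sets, and 0 without array 2 against 3.63%. At an unadjusted p under 0.05 there were 17 members (21.2%, against 25.6% of all) with it and 2 (2.5%, against 11.3% of all) without it. Hoxa13, the gene at the posterior end of its cluster, read 6.56, 7.41, 6.63 and 6.71 in unrecombined Hex cells and 6.48, 6.34, 6.37 and 6.40 in wild-type cells, without overlap but with array 2 far above its group. It rose by 0.43 (SE 0.12; limma adjusted p = 0.034), and by 0.23 without array 2, which did not pass (adjusted p = 0.244). The call was also lost without any 1 of the 4 wild-type arrays (adjusted p from 0.0522 to 0.098) and when only these 8 arrays were fitted (adjusted p = 0.652). Recombined Hex cells read 6.46, 6.51, 6.86 and 6.46, so 1 of the 4 lay among the unrecombined arrays. Pbx3 96580_at (-0.44; adjusted p = 0.0892), Pbx2 (-0.30; adjusted p = 0.0968) and Hoxa3 (0.25; adjusted p = 0.141) did not pass, and without array 2 their values shrank to -0.15, -0.13 and 0.08 (adjusted p = 0.649, 0.659 and 0.903).

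Recombined Hex cells against wild type gave 0 members (limma) against 0.266% of all probe sets, with 11 (13.8%) at an unadjusted p under 0.05 against 8.24% of all; without array 2 of unrecombined Hex 0 passed against 1.37%. The 4 members with the smallest p were Lhx1 at 0.31 (SE 0.09; limma adjusted p = 0.29), Hoxa4 97747_r_at at 0.33 (SE 0.11; adjusted p = 0.354), Hoxa6 102579_f_at at 0.26 (SE 0.10; adjusted p = 0.5) and En2 at 0.25 (SE 0.10; adjusted p = 0.546). The sign was shared widely: 70 of 80 members (87.5%) were above 0, with a median of 0.13, beside 76.8% of all probe sets below the median intensity and 62.6% of all. With each array centred on its median 64 (80%) were above 0, beside 66.9% of the dim probe sets. Recombined against unrecombined Hex, which shares the recombined arrays, had 41 members (51.2%) above 0 with all arrays, beside 52.1% of all probe sets. Without array 2 there were 67 (83.8%), beside 61.2% of all and 70.7% of the dim probe sets. After centring with array 2 kept there were 30 (37.5%), beside 41.6% of all and 29% of the dim ones. In that comparison no direction held across the settings, for the members or for all probe sets. Against wild type, where array 2 of unrecombined Hex has no part in the means, most members were above 0 in each setting.

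The HexERTVP2 clones differed in 2 members with all arrays and in 2 without array 2 of unrecombined Hex (limma), beside 1.22% and 3.25% of all probe sets. With all arrays 2 members (2.5%) had an unadjusted p under 0.05, against 7.32% of all. En2, which patterns the midbrain and cerebellum, rose and Nkx6-2, a gene of neural progenitors and glia, fell in clone 2 relative to clone 1, averaged over recombination and 4-OHT. En2 read from 6.59 to 7.21 on the 16 arrays of clone 1 and from 6.83 to 7.47 on the 12 of clone 2, so the ranges overlap. Its group means in clone 1 were 6.87 ± 0.09, 6.83 ± 0.21, 7.08 ± 0.16 and 6.94 ± 0.14, and in clone 2 they were 7.06 ± 0.24, 7.26 ± 0.06, 7.14 ± 0.11 and 7.31 ± 0.14 in the same order of states. Clone 2 was higher in each state, by 0.26 on average (SE 0.05; limma adjusted p = 0.00684), and the value stayed between 0.23 and 0.29 and passed with each of the 40 arrays left out in turn.

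Nkx6-2 had its highest group means in unrecombined clone 1, 6.73 ± 0.16 (n = 5) without and 6.73 ± 0.15 (n = 3) with 4-OHT. Those cells read 6.85, 6.76, 6.63, 6.53 and 6.90 without 4-OHT and 6.55, 6.80 and 6.84 with it. After recombination clone 1 read 6.30, 6.41, 6.44 and 6.08 without and 6.32, 6.49, 6.14 and 6.30 with 4-OHT, below every unrecombined array of that clone. Clone 2 read between 6.09 and 6.47 on its 12 arrays, and wild-type cells read 6.04, 6.44, 6.43 and 6.26. All recombined arrays of clone 2 lay within the range of recombined clone 1, so the clones stood apart only before recombination. The average fall in clone 2 was 0.25 (SE 0.06; limma adjusted p = 0.0315), and the call was lost with 12 of the 40 arrays left out in turn, at -0.27 to -0.22. Recombination without 4-OHT differed by -0.43 (SE 0.11) in clone 1 and by 0.03 (SE 0.13) in clone 2; the difference between the clones did not pass (adjusted p = 0.462), and the average over the clones, -0.20, did not pass either (adjusted p = 0.382).

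Over the 11 groups together, 4 members passed the limma F test with all arrays, against 5.17% of all probe sets, and 7 without array 2 of unrecombined Hex, against 12.9%. At an unadjusted p under 0.05 there were 11 members (13.8%, against 14.1% of all) with all arrays. With all arrays these were Nkx6-2 (adjusted p = 0.00731), Six4 93001_at (0.00971), En2 (0.0242) and Pbx3 93616_g_at (0.0405). Without array 2, Hoxa3 (adjusted p = 0.00135) and the other Six4 probe sets (0.0255 and 0.0448) joined them, and Six4 93001_at had 1.36e-05. Pbx3, a cofactor of Hox proteins, read 7.04, 7.08, 6.99 and 6.95 in wild-type cells on 93616_g_at, 7.18, 6.95, 7.0 and 6.96 in recombined Hex, 6.76, 6.69, 6.87 and 6.71 in recombined clone 1 without 4-OHT, and 6.84, 6.73 and 6.36 in unrecombined clone 2 without 4-OHT. All 4 recombined HexERTVP2 groups, with and without 4-OHT, and unrecombined clone 2 without it lay wholly below the 4 wild-type arrays, at 6.36 to 6.94 against 6.95 to 7.08. The second Pbx3 probe set, 93615_at, had its lowest mean in the same clone 2 group, 6.61 ± 0.64 (n = 3), and its highest in wild-type cells, 7.82 ± 0.28 (n = 4), with an SD far larger than that of the first, and it did not pass. The third, 96580_at, did not pass either (limma F test, adjusted p = 0.661, and 0.106 without array 2). Without array 2 its lowest mean was in unrecombined clone 2 with 4-OHT, 5.92, and its highest in recombined Hex, 6.20.

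**Figure D4:**
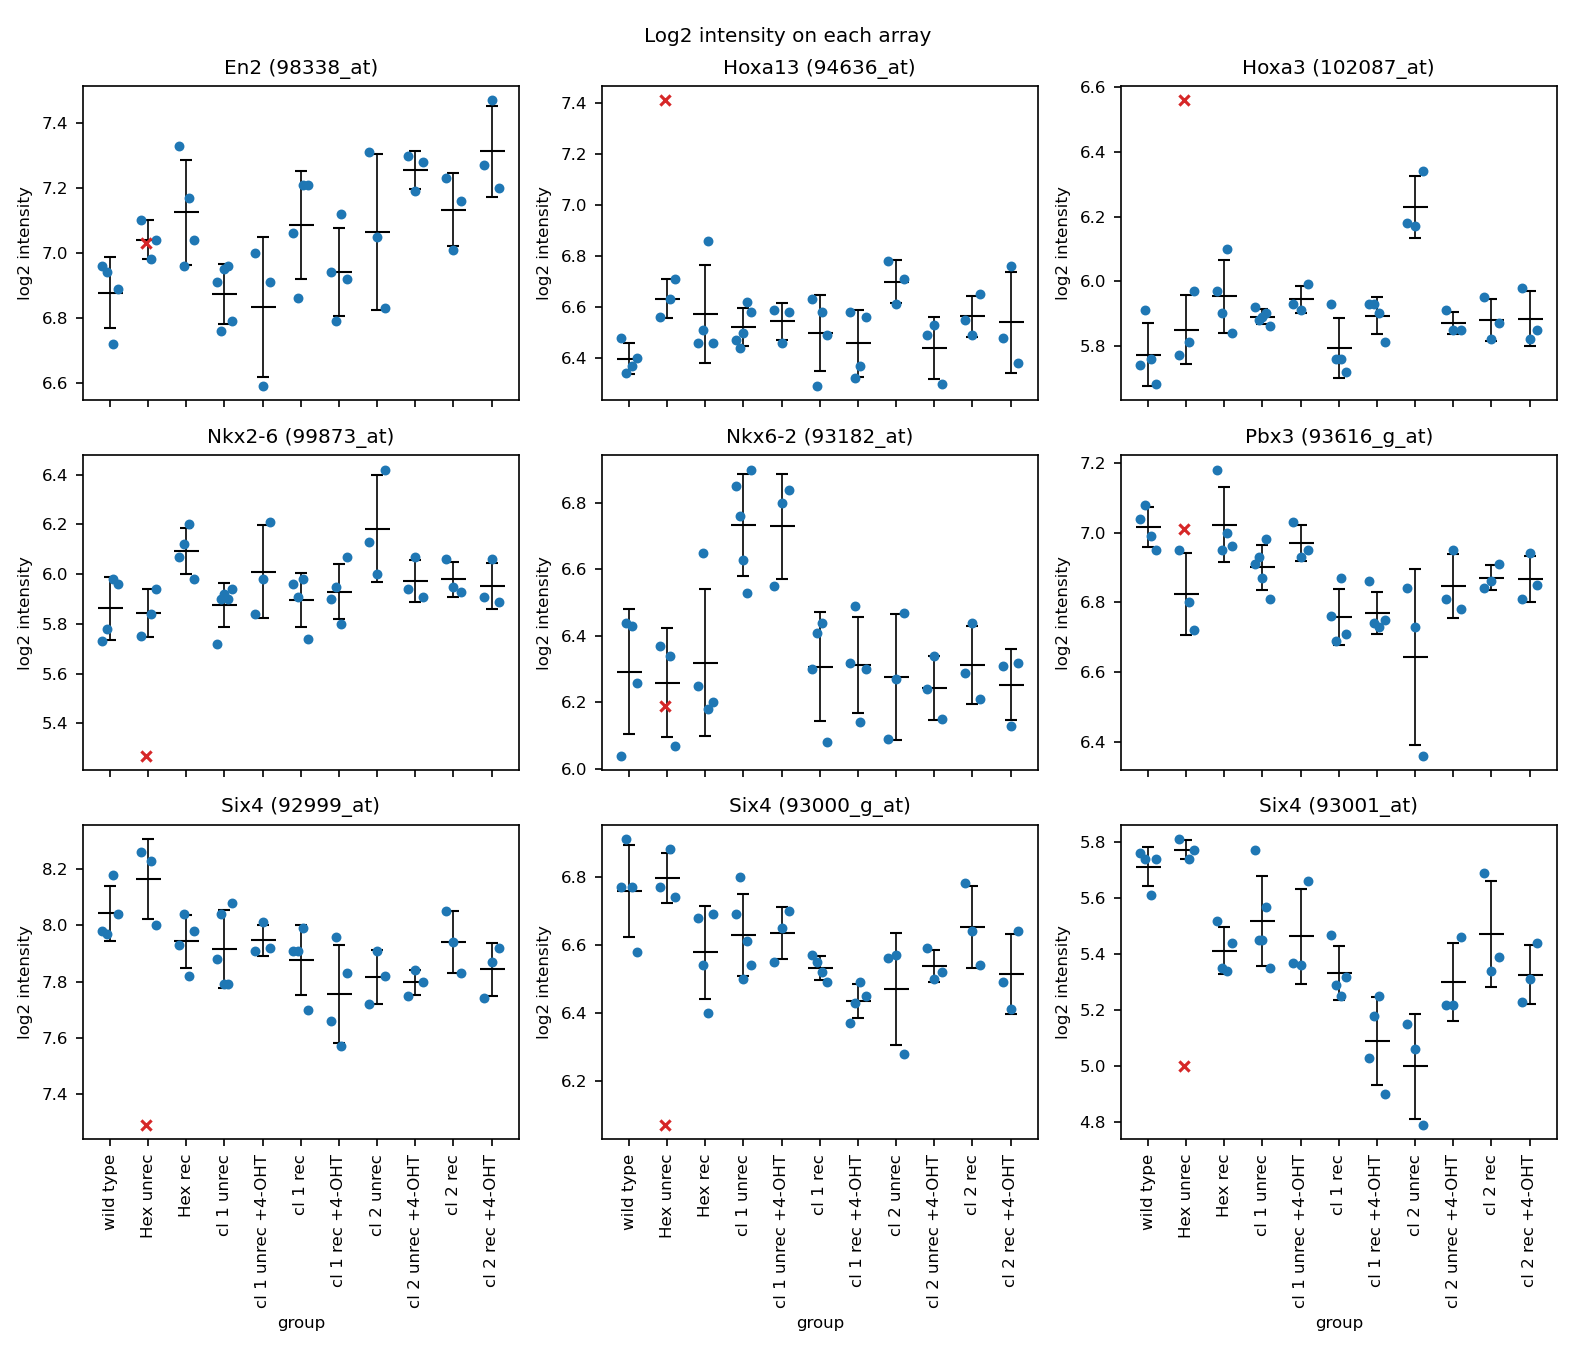
Log2 intensity (y axis) on each of the 40 arrays (points) in the 11 groups (x axis; cl, clone; unrec, unrecombined; rec, recombined) for the 9 probe sets called in any test, with or without array 2; bars give the mean ± SD without array 2 of unrecombined Hex (red cross). Nkx6-2 lies highest in unrecombined clone 1, at 6.53 to 6.90, and Six4 93001_at has its highest group means in unrecombined Hex cells without array 2 (5.77) and wild-type cells (5.71).

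Genes around these families were read in the same fit, as lists chosen with earlier results known. Each listed gene was read by its brightest probe set, while the shares over all probe sets include dim ones. With only probe sets at or above the median intensity fitted, 5.26% were called in the Hex comparison with all arrays. No such share is given without array 2, so the list shares in that setting have no matched background here. Of 86 other homeobox genes 55 were measured, and in the Hex comparison 1 of them rose and 2 fell (5.45%, against 3.37% of all probe sets). Nanog, a pluripotency factor, rose by 0.65 (SE 0.15; limma adjusted p = 0.0083), while Gbx2, a factor of early neural patterning and ES cell self-renewal, fell by 1.14 (SE 0.21; adjusted p = 9.23e-04) and Satb1, a chromatin organiser, fell by 0.54 (SE 0.08; adjusted p = 1.10e-04). Without array 2, 5 of the 55 passed (9.09%, against 6.26% of all): Nanog by 0.43 and Hesx1, a pituitary and forebrain gene, by 0.49, and Gbx2 by -1.52, Satb1 by -0.56 and Rhox5, a reproductive homeobox gene, by -0.37. With all arrays, unrecombined Hex itself stood off wild type in the opposite direction. It differed by -0.97 for Nanog, 0.87 for Gbx2 and 0.39 for Satb1 (limma adjusted p = 5.12e-05, 0.0104 and 0.00415). Nanog, Gbx2 and Satb1 did not pass in recombined Hex against wild type, with or without array 2. The same list gave 0 of 55 for 4-OHT in recombined cells. Of 34 Polycomb and Trithorax genes, whose products silence or maintain Hox genes, 25 were measured. Only Ezh1, a histone methyltransferase, passed in the Hex comparison with all arrays, at 0.32 (SE 0.08; adjusted p = 0.0147), which is 4% of the list against 3.37% of all probe sets. Without array 2 it passed again, at 0.38, and Eed, Rbbp7, Kdm6a and Yy1 fell by 0.70, 0.39, 0.39 and 0.46, so that 20% of the list passed against 6.26% of all. Ezh1 also stood off wild type in unrecombined Hex, by -0.49 with all arrays (limma adjusted p = 8.69e-05). It did not pass in recombined Hex against wild type. Of 18 genes of retinoic acid signalling, which induces Hox genes, 14 were measured, and Crabp1, a binding protein of retinoic acid, rose by 0.42 (SE 0.11; adjusted p = 0.0197), 1 of 14 (7.14%, against 3.37% of all). Without array 2 the list gave 2 of 14 (14.3%, against 6.26%): Crabp1 rose by 0.36 (adjusted p = 0.0449) and Stra8, a meiosis gene induced by retinoic acid, fell by 0.49 (adjusted p = 0.0106). For 4-OHT in recombined cells 0 of 25 and 0 of 14 passed.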

How the data were processed

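Gene expression was measured on single-channel Affymetrix arrays with biotin-labelled total RNA. The deposited table holds 1 intensity per probe set and array on a linear scale; per the submitters' processing notes the authors used RMA, which corrects background, normalises by quantiles and summarises probes, with no version, and the set of arrays normalised jointly is not given in the sources used here. The intensities were converted to log2 here. Of 12488 probe sets, 66 controls were left out and 12422 were tested with no filter on intensity. Gene symbols are those of GEO's platform annotation (1 symbol for 10833 probe sets, several for 396, none for 1193), and the Entrez IDs of all 80 members matched RefSeq. Groups came from the titles; 4 arrays whose titles name different clones or treatments in words and in code were left out.

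One model over all 11 groups (limma 3.58.1 in R 4.3.3; lmFit, then eBayes) left 29 residual degrees of freedom and gave two-sided moderated tests and Benjamini-Hochberg adjustment over all probe sets at 0.05. "Called" and "passed" mean an adjusted p under that threshold, and the F test asks for any difference among groups. There were 10 comparisons, 1 of them (the difference between the clones in the recombination response) chosen after seeing the data. Probe sets with values were named by a rule: members called, or the 4 with the smallest p where fewer than 4 were called, and up to 3 bright members per family; the 4 members with the widest group ranges, and figures of array 2, were added after their values were seen. The members, lists and rule were chosen with earlier results of these data known. Alternatives were median centring, a filter on dim probe sets, trended robust moderation, only the arrays compared, a replicate block, the β-actin ratio as a covariate, and leaving out arrays. The fit was tested on simulated data. The number of arrays limits the precision, since intensities carry no counts. Promoters were read from RefSeq tables, and figures drawn with matplotlib 3.10.9 in Python 3.11.15.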

Additional observations from a re-analysis of the deposited data

Results flagged for a closer look

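Among the probe sets that passed in any test, 54 groups of 4 or 5 arrays were checked for an array far from the rest by Dixon's test, and 5 held one; chance gives about 1 in 20. Six4 93001_at read 5.0 on array 2 of unrecombined Hex against 5.74 to 5.81 on the other 3, and 5.61 on array 3 of the wild type against 5.74 to 5.76. Nkx6-2 read 6.65 on array 2 of recombined Hex against 6.18 to 6.25. Hoxa13 read 6.86 on array 3 of recombined Hex against 6.46 to 6.51. Nkx2-6 read 5.72 on array 1 of unrecombined clone 1 without 4-OHT against 5.90 to 5.94. Over all members 48 of 480 groups held such an array, and in 19 of these it was array 2 of unrecombined Hex. Groups of 3 arrays were not checked.

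The response of Six4 93001_at to recombination without 4-OHT differed between the HexERTVP2 clones, being 0.66 higher in clone 2 (limma, without array 2 of unrecombined Hex, adjusted p = 0.01). With all arrays this difference did not pass (adjusted p = 0.207), nor did those of the other Six4 probe sets under either setting.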

How the results depend on the processing

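The counts of members called were 0 under all 8 alternatives and with each array left out for 4-OHT in recombined and in unrecombined cells, the interaction and the clone difference in the 4-OHT response. Under the alternatives at most 0.282% of all probe sets were called in any of these comparisons. Counts with the dim filter are out of 21 members. For the Hex comparison (1) the count was 0 after centring, against 2.71% of all probe sets. The dim filter gave 0 (against 5.26%), as did only its own arrays (against 0.0644%). It was 2 without array 2 of unrecombined Hex plus the β-actin ratio as a covariate, against 13.2%. With arrays left out in turn it was 0 to 2. It was 2 without array 1, 3 or 4 of unrecombined Hex (4.21%, 4.9% and 3.43% of all) or array 1 of recombined Hex (2.2%). It was 0 without array 2 or 3 of recombined Hex (1.88% and 2.94%). For unrecombined Hex against wild type (1) it was 0 with the filter, with only its own arrays, without array 2, and without array 2 plus the ratio, and 0 to 5 with arrays left out: 4 without array 1 and 5 without array 3 of unrecombined Hex, 0 without any wild-type array. For recombined Hex against wild type (0) it was 3 without array 2 plus the ratio, against 4.93% of all. For recombination (0) it was 1 without array 2 (against 3.38% of all) and 2 with the ratio added (against 3.45%). With arrays left out it was 0 to 1. For its difference between clones (0) it was 1 without array 2 (against 1.35%), 4 with the ratio added, and 0 to 1 with arrays left out. For the clones (2) it was 1 with the filter (against 1.55% of all) and 1 to 2 with arrays left out. For the F test (4) it was 2 with the filter, 7 without array 2 (against 12.9% of all), 16 with the ratio added, and 3 to 7 with arrays left out. No share over all probe sets is given here for the other F test counts, nor for the 4 in the clone difference. Those counts are therefore not read as a result about the members. The causes were not tested, apart from the filter, which removes dim members.

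En1 turned sign in the Hex comparison, where its value of -0.01 did not pass: it was 0.10 with the β-actin ratio, 0.30 without array 2, 0.31 with both, and -0.13 to 0.30 with arrays left out, among them 0.06 without array 2 of recombined Hex.

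Replicate numbers were not part of the main model. Of 163 same-numbered pairs of arrays 86 deviated together at a correlation over 0.1, with a median of 0.18 and a lowest value of -0.7. Of 526 pairs with different numbers 209 did so, with a median of -0.077 and a lowest value of -0.83. Arrays with the same number thus shared some deviation on average, though not in every pair. With the replicate block the Hex count was 2 (against 3.93% of all probe sets), with Msx2 added. The clone difference in recombination gave 1 (Msx2, -0.51) and the F test gave 5, for which no share over all probe sets is given here. The other counts of members were unchanged under the block.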

Other observations

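Rhox5 and Gbx2 are homeobox genes outside the families described. Rhox5, an X-linked reproductive homeobox gene, was lower than in wild type by 1.18 in unrecombined Hex (SE 0.18; limma adjusted p = 3.87e-05; 0.83 without array 2) and by 1.20 in recombined Hex (SE 0.18; adjusted p = 1.49e-04), comparisons that share the wild-type arrays. It was lower in HexERTVP2 clone 2 than in clone 1 by 1.02 (SE 0.10; adjusted p = 6.68e-09), beside 0.26 for En2, the member with the lowest adjusted p there. Gbx2 was 0.87 higher in unrecombined Hex than in wild type (SE 0.21; adjusted p = 0.0104), and 1.26 higher without array 2. Crabp1 was lower in unrecombined Hex than in wild type by 0.55 (SE 0.11; adjusted p = 0.00113; 0.49 without array 2) and in clone 2 by 0.27 (SE 0.06; adjusted p = 0.00707). Values against unrecombined Hex share its arrays with the Hex comparison and are not independent of it.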
